A study of Mus musculus with 15 samples.

Results

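Liver of adult male mice underfed before birth was set against liver of control males, as read from the Affymetrix GeneChip Mouse Genome 430 2.0 array, on which short probes report most mouse genes. The members were the 3 arrays labelled as underfed in utero (pools 4, 5 and 6) and the 3 arrays labelled as control liver (pools 1, 2 and 3), 6 of the 15 arrays of the series. IUGR F1 (intrauterine growth restriction, first generation) denotes males whose supply of calories was restricted by 50% while in utero, and control denotes males with neither this restriction nor overfeeding in their labels. The control pools mixed livers of first and second generation offspring, whereas the IUGR F1 pools held the first generation only, so generation was not matched between the groups. The other 9 arrays hold 3 pools each of males overfed during lactation (ON F1), of male offspring of IUGR males (IUGR F2) and of male offspring of ON males (ON F2). The study asked whether expression patterns of the first generation are found again in offspring through the paternal line. Each array held RNA of pooled whole livers, and the 3 that opens each title is taken to be the number of livers pooled. The labels call the IUGR, ON and F2 mice adult and give no exact age, strain or litter. They do not say that pools came from separate litters, so a p-value reflects how these pools scatter and nothing wider.

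Undernutrition before birth slows fetal growth, and in rodents and people it has been linked to altered glucose and fat handling in adult life. The liver is central to that link, since hepatocytes make glucose, lipoproteins and most plasma proteins, while Kupffer cells, the resident macrophages, clear particles from portal blood and respond to inflammatory signals. Imprinted genes, which are expressed from 1 parental copy, and the enzymes of DNA methylation are often examined in such models because their marks are set early in development.

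All 6 arrays read as liver. The 13 measured hepatocyte products, which include albumin (Alb), had a median level of 13.17 on the log2 scale over the 15 arrays, and their median difference between IUGR F1 and control livers was 0.02. Levels throughout are log2 values from robust multi-array average (RMA), and differences are IUGR F1 minus control with the standard error (SE) from limma. Pairwise correlations across probe sets lay between 0.991 and 0.995 among the 6 arrays, averaging 0.9934 within the groups and 0.9929 between them. Clock genes, which follow the time of day, differed within both groups. A score of clock genes stood at -1.51, 0.99 and -0.30 in IUGR F1 pools 4, 5 and 6, against -1.18, 1.38 and -0.77 in control pools 1, 2 and 3 (exact permutation p = 1.0, two-sided). The ratio of 3' to 5' actin probe sets, a sign of RNA length, averaged 1.88 ± 0.05 in IUGR F1 and 1.87 ± 0.10 in control pools (SD, n = 3 each, exact permutation p = 0.9).

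No gene was called between IUGR F1 and control livers. At an adjusted p under 0.05 limma called 0 of 18193 (0%), and the smallest adjusted p was 0.0829. At an unadjusted p under 0.05, 994 genes (5.46%) lay higher and 540 (2.97%) lay lower in IUGR F1. In 1563 genes (8.59%) all 3 IUGR F1 pools lay above all 3 control pools, and in 1071 (5.89%) all 3 lay below. Differences were small for most genes: 38 lay more than 0.5 higher and 100 more than 0.5 lower, and beyond 1, which is a doubling or halving, there were 3 higher and 12 lower. By a rough count, single pools were about as far from the control mean as control pools were from each other. The measures are not alike: the mean of the other control pools rests on fewer pools, which by itself raises the control counts. In IUGR F1 pools 4, 5 and 6, 33, 26 and 46 genes lay more than 1 from the control mean, while in control pools 1, 2 and 3 the numbers were 37, 50 and 53 against the mean of the other control pools.

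The excess of higher genes sat among dim genes. Among the 10363 genes with a mean level of 5 or more, 333 lay higher and 419 lower at an unadjusted p under 0.05, with a median difference of -0.02. Among the 7830 dimmer genes, 661 lay higher and 121 lower, with a median difference of 0.05. The arrays themselves differed in the same sense: the median over all probe sets was 4.633, 4.639 and 4.650 in IUGR F1 pools, against 4.613, 4.624 and 4.595 in control pools, while the upper quartile was 6.36, 6.33 and 6.35 in IUGR F1, against 6.37, 6.36 and 6.43 in control pools. The standard deviation within an array was 2.030, 2.020 and 2.021 in IUGR F1, against 2.044, 2.047 and 2.072 in control pools. The exact permutation p was 0.1 for each of these 3 measures, the smallest that 3 pools against 3 allow. After a further quantile normalization the bright genes divided into 504 higher and 227 lower, and after centring each array on its median the whole split became 673 higher and 869 lower. Most small differences of dim genes are therefore given below with the level of the gene.

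**Figure D1:**
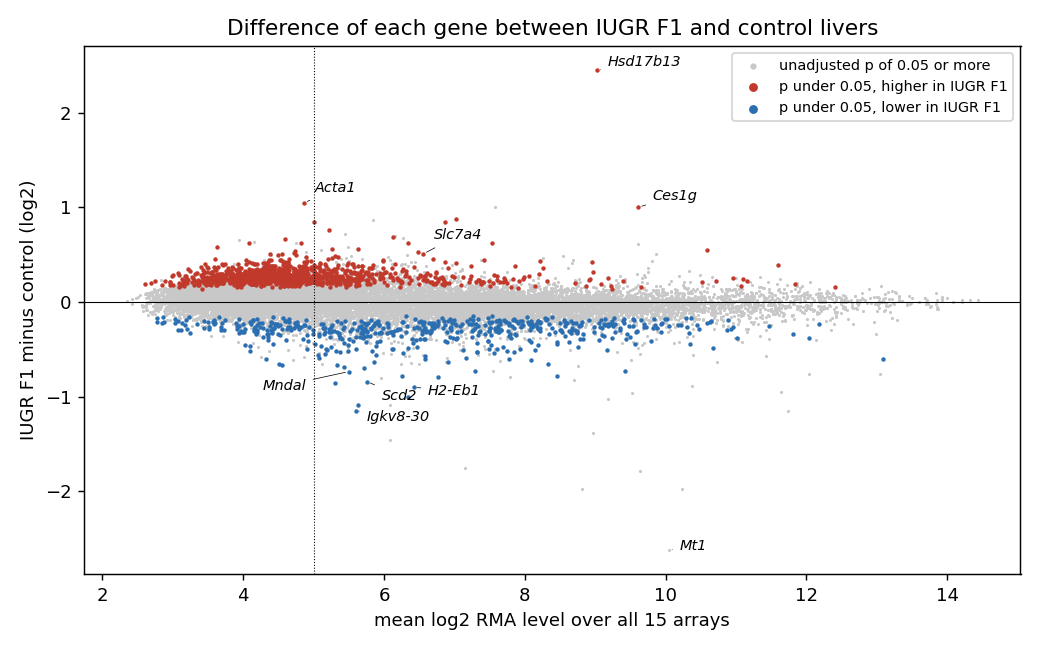
Each point is 1 of 18193 genes, placed by its mean log2 RMA level over all 15 arrays and by its log2 difference, IUGR F1 minus control. Red and blue points have an unadjusted p under 0.05, higher or lower in IUGR F1, and the dotted line marks the level of 5. Red points crowd the dim side, where 661 genes were higher and 121 lower.

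The gene closest to a call on the higher side was Slc7a4, a member of the cationic amino acid transporter family. It stood at 6.78, 6.86 and 6.77 in IUGR F1 pools 4, 5 and 6, against 6.33, 6.29 and 6.28 in control pools 1, 2 and 3. Both groups were narrow and lay well apart, and the difference was 0.51 ± 0.08 (limma adjusted p = 0.0942), with the same sign in each of its 3 probe sets. Rimklb, an enzyme that joins glutamate to citrate or N-acetylaspartate, stood at 5.24, 5.24 and 5.32 in IUGR F1, against 4.89, 4.94 and 4.75 in control pools (0.40 ± 0.07, adjusted p = 0.202), with this sign in 3 of its 4 probe sets. The cytosolic DNA sensor Cgas stood at 4.96, 5.13 and 5.02, against 4.48, 4.36 and 4.72 in control pools (0.52 ± 0.09, adjusted p = 0.202). Adm2, which encodes a peptide hormone of the calcitonin family, stood at 4.68, 4.76 and 4.65, against 4.31, 4.23 and 4.05 in control pools (0.50 ± 0.10, adjusted p = 0.346). None of these 4 genes overlapped between the groups, and 8.59% of all genes lay above in this way. A choice by small p favours such genes.

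The other 11 genes with the smallest p on the higher side differed by 0.34 to 0.44 and had adjusted p-values of 0.346 to 0.371. They include Sh3gl2, the membrane-bending protein endophilin A1 (0.42 ± 0.08), Ctnnd2, a catenin best known from neurons (0.38 ± 0.08, with this sign in 1 of its 2 probe sets), the phosphatase Dusp23 (0.43 ± 0.09) and Ucp3, a mitochondrial carrier best known from muscle (0.43 ± 0.09). Most of the 15 were dim: 11 had a mean level under 5.

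Mndal had the smallest p of all genes. It belongs to the interferon-inducible p200 family, whose members bind DNA in the nucleus. It stood at 5.21, 4.92 and 5.11 in IUGR F1 pools 4, 5 and 6, against 5.67, 5.81 and 5.96 in control pools 1, 2 and 3, a difference of -0.73 ± 0.10 (limma adjusted p = 0.0829) with the same sign in both probe sets. The groups lay apart. Tpsg1, a membrane-bound tryptase of mast cells, stood at 3.97, 3.89 and 4.04, against 4.63, 4.48 and 4.59 in control pools (-0.60 ± 0.11, adjusted p = 0.202).

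The genes next in order on the lower side included the following 8, none of them called. Lpxn, a focal adhesion adaptor of blood cells with a low mean level of 4.10 over the 15 arrays, differed by -0.52 ± 0.11. Lcp1, the leukocyte actin-bundling protein L-plastin, differed by -0.39 ± 0.10, and Ube2l6, which transfers the interferon-induced modifier ISG15, by -0.68 ± 0.17. The lysosomal and endosomal protease Sppl2a stood at 10.12, 10.13 and 9.97 in IUGR F1, against 10.30, 10.32 and 10.57 in control pools (-0.33 ± 0.08, adjusted p = 0.383). C1galt1, which builds the core of O-linked glycans, stood at 7.43, 7.48 and 7.27, against 7.87, 7.86 and 8.00 in control pools (-0.52 ± 0.12, adjusted p = 0.383). Rer1, which retrieves proteins to the endoplasmic reticulum, differed by -0.26 ± 0.06, the acetyl-CoA carrier Slc33a1 by -0.44 ± 0.11 and Serpina7, the plasma carrier of thyroxine, by -0.59 ± 0.15. In each of these 8 genes the pools of the groups lay apart, which their choice by small p favours, and 5.89% of all genes lay below in this way.

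**Figure D2:**
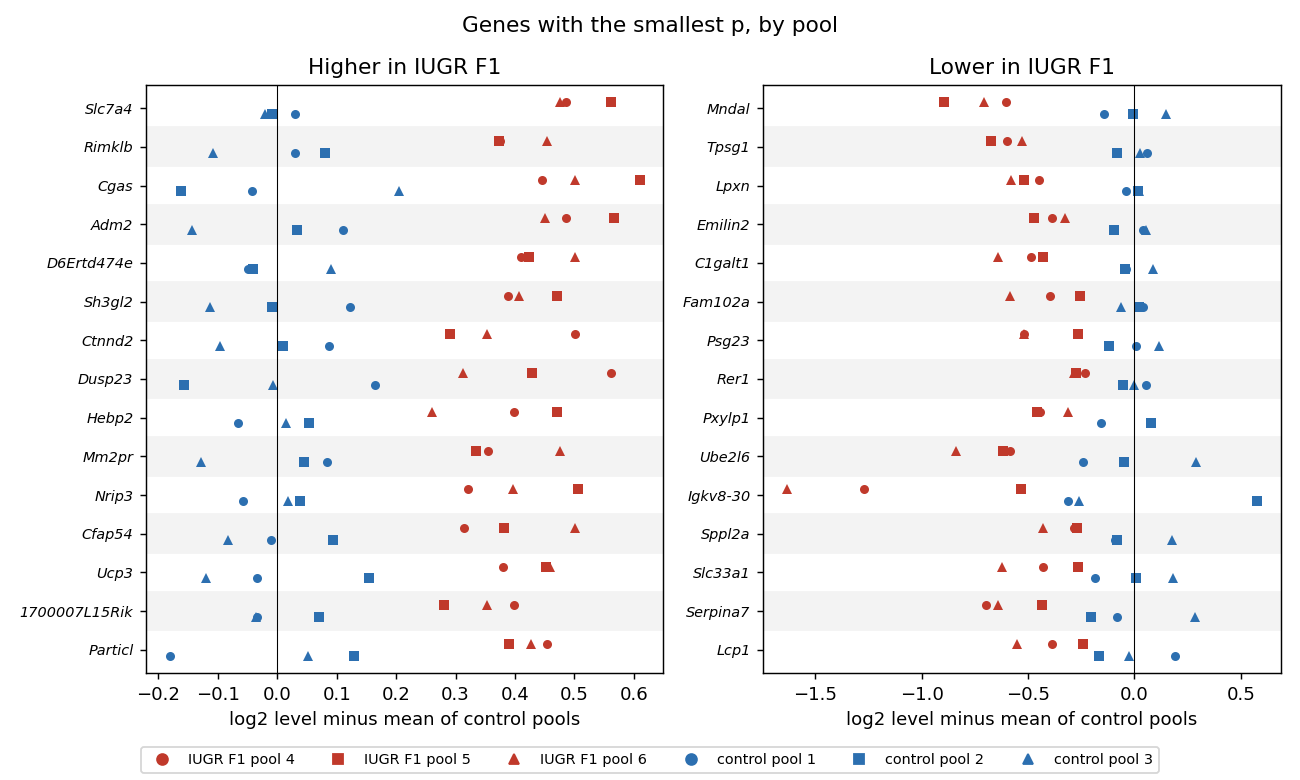
The 15 genes of each direction with the smallest p are shown as log2 level minus the mean of the control pools, with 1 symbol per pool (red IUGR F1, blue control). The groups lie apart in every gene shown, which a choice by small p favours. Slc7a4 and Rer1 have tight IUGR F1 pools while Igkv8-30 is widely spread in both groups.

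Genes with larger differences varied in how tightly their pools lay. Ces1g, a carboxylesterase that hydrolyses lipid esters in hepatocytes, stood at 10.09, 9.92 and 10.22 in IUGR F1, against 9.08, 8.89 and 9.26 in control pools. The difference was 1.00 ± 0.24 (limma adjusted p = 0.383), and both groups were narrow and lay apart. Hsd17b13, a lipid droplet enzyme of hepatocytes, stood at 10.12, 9.86 and 10.40 in IUGR F1, against 6.56, 9.79 and 6.68 in control pools (2.45 ± 1.00, adjusted p = 0.532). Control pool 2 lay just under the lowest IUGR F1 pool, and only 1 of the 2 probe sets of Hsd17b13 had this sign. Its level also varied widely within ON F1 (6.83, 6.98 and 10.31) and IUGR F2 pools (10.17, 9.13 and 6.59). ON F2 pools stood at 11.38, 10.15 and 10.43. Ndrg1, a gene induced by low oxygen and differentiation, stood at 6.52, 6.39 and 6.89, against 6.02, 5.86 and 6.05 in control pools (0.62 ± 0.22, adjusted p = 0.475), and all 5 of its probe sets were higher.

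On the lower side, Cyb561, an electron carrier of secretory vesicles, stood at 5.74, 5.72 and 5.31 in IUGR F1, against 6.63, 6.07 and 7.06 in control pools (-1.00 ± 0.46). Cers6, a ceramide synthase, stood at 5.39, 6.34 and 5.89, against 6.39, 6.37 and 7.21 in control pools (-0.78 ± 0.28), so that pool 5 lay just under the lowest control pool. The fatty acid desaturase Scd2 stood at 5.66, 5.34 and 5.51, against 6.51, 5.78 and 6.74 in control pools (-0.84 ± 0.23), with this sign in 1 of its 3 probe sets. The cytochrome Cyp3a13 differed by -0.73 ± 0.32. Adjusted p-values of these 4 genes lay between 0.399 and 0.592.

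The most negative differences of all came with widely spread IUGR F1 pools. Mt1, the metal-binding metallothionein that stress hormones and zinc induce, stood at 7.29, 12.37 and 6.90 in IUGR F1 pools 4, 5 and 6, against 12.44, 10.70 and 11.29 in control pools (-2.62 ± 1.49, limma adjusted p = 0.658). Its relative Mt2 stood at 6.56, 11.49 and 6.44, against 10.04, 9.22 and 11.16 in control pools (-1.98 ± 1.44). In both genes pools 4 and 6 lay far under the control pools and pool 5 within or above their range. Lcn2, an iron-withholding protein of the acute phase, stood at 10.56, 11.12 and 7.73, against 11.80, 11.15 and 12.39 in control pools (-1.97 ± 1.56), with pool 6 lowest by a wide margin.

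Markers of Kupffer cells were lower in IUGR F1 livers. Of 22 measured markers 21 lay lower, with a median difference of -0.47, beside a median of 0.01 over all genes. The median over the markers stood at -0.37, -0.47 and -0.49 in IUGR F1 pools 4, 5 and 6, against -0.22, -0.04 and 0.29 in control pools 1, 2 and 3, each relative to the control mean. In 12 of the 22 all IUGR F1 pools lay below all control pools, where 5.89% of all genes did, and 10 had an unadjusted p under 0.05 on the lower side, where 2.97% of all genes did. None was called, with limma adjusted p-values of 0.432 or more. In whole liver, fewer cells of a type and less RNA per cell cannot be told apart. The IUGR F1 pools agreed among themselves more closely than the control pools did, and control pool 3 stood highest. Without control pool 3 the median difference was -0.31, with 20 of 22 lower and 12 below all remaining control pools. That condition is looser with fewer control pools, and its share over all genes was not computed.

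The markers with the smallest p were genes of phagocytosis and complement. Ctss, the lysosomal protease cathepsin S, stood at 7.73, 7.67 and 7.55 in IUGR F1, against 7.91, 8.22 and 8.67 in control pools (-0.61 ± 0.18, limma adjusted p = 0.432). C1qb, a chain of the complement starter C1q, stood at 6.49, 6.54 and 6.54, against 6.89, 6.89 and 7.69 in control pools (-0.64 ± 0.21, adjusted p = 0.465), with the same sign in its 3 probe sets. The signalling adaptor Tyrobp stood at 6.12, 6.14 and 5.97, against 6.29, 6.57 and 6.83 in control pools (-0.48 ± 0.16, adjusted p = 0.474). In these 3 genes the IUGR F1 pools lay closer to each other than the control pools did.

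The lectin Clec4f, which in mouse liver marks Kupffer cells in particular, stood at 7.50, 7.15 and 7.30 in IUGR F1, against 7.62, 7.64 and 8.13 in control pools (-0.48 ± 0.17). The complement receptor Vsig4 differed by -0.50 ± 0.19, the secreted scavenger protein Cd5l by -0.65 ± 0.25 and the scavenger receptor Marco by -0.66 ± 0.33, each with its pools below the control pools. Cd14, which binds bacterial lipopolysaccharide, had the most negative difference of the list and overlapped: it stood at 5.39, 6.29 and 5.61, against 7.15, 5.55 and 7.85 in control pools (-1.09 ± 0.56). Adgre1, a surface receptor widely used to mark macrophages, stood at 5.85, 5.76 and 5.71, against 5.78, 5.91 and 5.97 in control pools (-0.11 ± 0.14), and the receptor Csf1r, on which macrophages depend, at 8.24, 8.28 and 8.38, against 8.20, 8.63 and 8.81 (-0.25 ± 0.16). Of the 22, the iron exporter Slc40a1 was the only one on the higher side (0.05 ± 0.15), in 1 of its 2 probe sets.

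**Figure D3:**
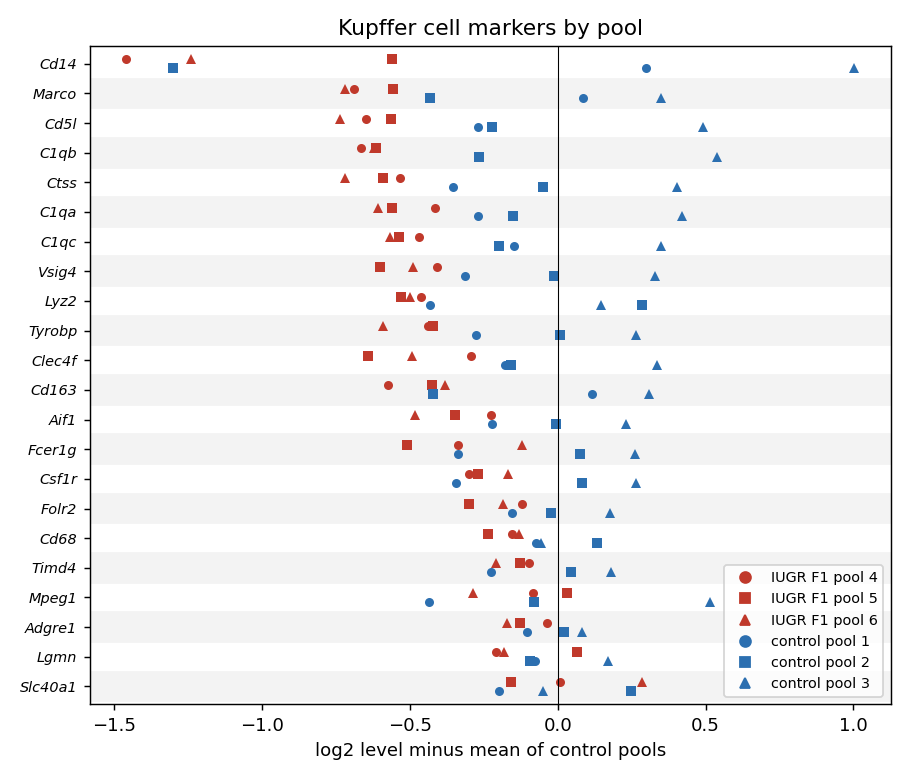
The 22 Kupffer cell markers are shown as log2 level minus the mean of the control pools, with 1 symbol per pool (red IUGR F1, blue control), ordered by difference. In 12 markers the IUGR F1 pools lie below all control pools, and control pool 3 is often the highest point.

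Lists of other cell types had medians nearer to 0 than the Kupffer list. Neutrophil and monocyte genes had a median difference of 0.02 (6 of 13 lower), stellate cell and matrix genes -0.07 (15 of 21 lower) and cholangiocyte markers 0.07 (4 of 12 lower), with overlapping pools in each of these lists. Without control pool 3 the stellate median was -0.03, and without control pool 1 the cholangiocyte median was 0.04. Markers of sinusoidal endothelium, the vessel lining that neighbours Kupffer cells, lay higher in 14 of 18, with a median of 0.09 and overlapping pools. Without control pool 3 that median was 0.02, with 11 of 18 higher, and without pool 6 it was 0.05. T and natural killer cell genes lay higher in 14 of 16, with a median of 0.12 and pool medians of 0.09, 0.14 and 0.16 in IUGR F1, against -0.02, 0.00 and 0.00 in control pools. In 6 of the 16 the IUGR F1 pools lay above all control pools, where 8.59% of all genes did, and without pool 6 the median was 0.07. The T cell receptor component Cd3d stood at 4.40, 4.38 and 4.30, against 3.93, 4.27 and 4.11 in control pools (0.26 ± 0.08), and the coreceptor Cd4 at 5.92, 5.89 and 5.86, against 5.64, 5.51 and 5.50 (0.34 ± 0.11), with this sign in 1 of its 2 probe sets. Of these 16 genes 13 had a mean level under 5, where most small differences were positive.

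Skeletal muscle genes marked pool 5. The 14 measured genes, all with a mean level under 5, had medians of 0.09, 0.43 and -0.03 in IUGR F1 pools 4, 5 and 6, against 0.05, 0.01 and -0.07 in control pools. Muscle actin, Acta1, stood at 4.70, 7.28 and 4.86 in IUGR F1, against 4.42, 4.65 and 4.63 in control pools (1.05 ± 0.47, limma adjusted p = 0.566), and its difference was set by pool 5. The median difference of the list was 0.15 over all pools, 0.01 without pool 5, 0.23 without pool 4 and 0.24 without pool 6. In exocrine pancreas genes, digestive enzymes in the main, 7 of 9 lay higher and the median of 0.17 was the highest of the 43 lists. Their pool medians were 0.08, 0.10 and 0.12 in IUGR F1, against 0.04, -0.02 and -0.04 in control pools, which did not overlap. In 4 of the 9 all IUGR F1 pools lay above all control pools, where 8.59% of all genes did. The median was 0.10 without pool 5 and 0.08 without control pool 3. None had an unadjusted p under 0.05 in the fit, which takes its spread from all 15 arrays. Cpa1, a digestive carboxypeptidase, stood at 4.62, 4.54 and 4.57, against 4.23, 4.25 and 4.17 in control pools. It stood at 9.09 in ON F2 pool 13, and the SE of its difference was 0.83.

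Interferon response genes lay lower in 24 of 28, with a median difference of -0.26. Their pool medians were -0.19, -0.34 and -0.21 in IUGR F1, against -0.14, -0.05 and 0.19 in control pools, so the groups lay apart by a narrow margin. In 10 of the 28 all IUGR F1 pools lay below all control pools, where 5.89% of all genes did, and 5 had an unadjusted p under 0.05 on the lower side, where 2.97% of all genes did, 1 of them Mndal. Without control pool 3 the median was -0.13. Cxcl10, a chemokine that draws T cells, stood at 4.50, 4.42 and 4.86, against 5.10, 5.11 and 5.06 in control pools (-0.50 ± 0.17, limma adjusted p = 0.474). Stat2, a signal transducer of the interferon receptor, stood at 5.69, 5.86 and 5.77, against 5.92, 5.99 and 6.15 in control pools (-0.25 ± 0.10), with this sign in 1 of its 2 probe sets. The DNA sensor Cgas ran the other way, as given above. Kupffer cell markers were lower in the same 3 pools, and their part in these values was not tested.

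Complement genes lay lower in 18 of 19, with a median of -0.11 and overlapping pool medians. That median was -0.04 without pool 6, -0.07 without control pool 2 and -0.16 without control pool 1. Fcna, a ficolin that Kupffer cells express, stood at 7.07, 6.93 and 6.78 in IUGR F1, against 7.32, 7.40 and 7.64 in control pools (-0.53 ± 0.15, limma adjusted p = 0.42). Cfp, the complement regulator properdin made by myeloid cells, differed by -0.37 ± 0.15, and the liver proteases C1ra and C1s1 by -0.20 ± 0.08 and -0.38 ± 0.16. Among MHC class II genes, which present antigen, H2-Eb1 stood at 6.13, 6.24 and 5.84, against 6.53, 7.36 and 7.03 in control pools (-0.90 ± 0.27), and its partner chain gene H2-Ea at 6.10, 6.06 and 6.30, against 5.81, 5.98 and 5.61 (0.35 ± 0.13). Both genes had non-overlapping pools, in opposite directions, where 8.59% of all genes lay above and 5.89% below. They were the only ones of the 10 measured class II genes to do so. The list had 8 of 10 lower and a median of -0.09 with overlapping pool medians, and without pool 5 the median was -0.03. H2-Aa differed by -0.43 ± 0.17, with the same sign in its 4 probe sets, and overlapped. The invariant chain Cd74 differed by -0.35 ± 0.16 and overlapped.

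A pair of transcripts typical of plasma cells had negative differences, and neither was called. The immunoglobulin light chain segment Igkv8-30 stood at 5.30, 6.04 and 4.94 in IUGR F1, against 6.26, 7.15 and 6.31 in control pools (-1.15 ± 0.28, limma adjusted p = 0.383). Jchain, which links immunoglobulin chains into polymers, stood at 5.26, 6.21 and 5.13, against 6.26, 7.41 and 6.19 in control pools (-1.09 ± 0.32, adjusted p = 0.432). In both genes pool 5 was the highest of IUGR F1 and pool 2 the highest of control. The B cell and immunoglobulin list as a whole had 8 of 11 lower and a median of -0.05, and without control pool 2 it had 7 of 11 higher and a median of 0.03. Igkv8-30 and Jchain had their highest group means in the control pools, 6.58 and 6.62. Every other group had a lower mean of Igkv8-30, from 5.04 (IUGR F2) to 5.49 (ON F2). Its means were 5.43 ± 0.56 for IUGR F1 and 5.45 ± 0.44 for ON F1. Jchain means outside control ranged from 4.94 (IUGR F2) to 5.63 (ON F1), with IUGR F1 at 5.53. Means below control were thus not particular to IUGR F1 in these genes.

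**Figure D4:**
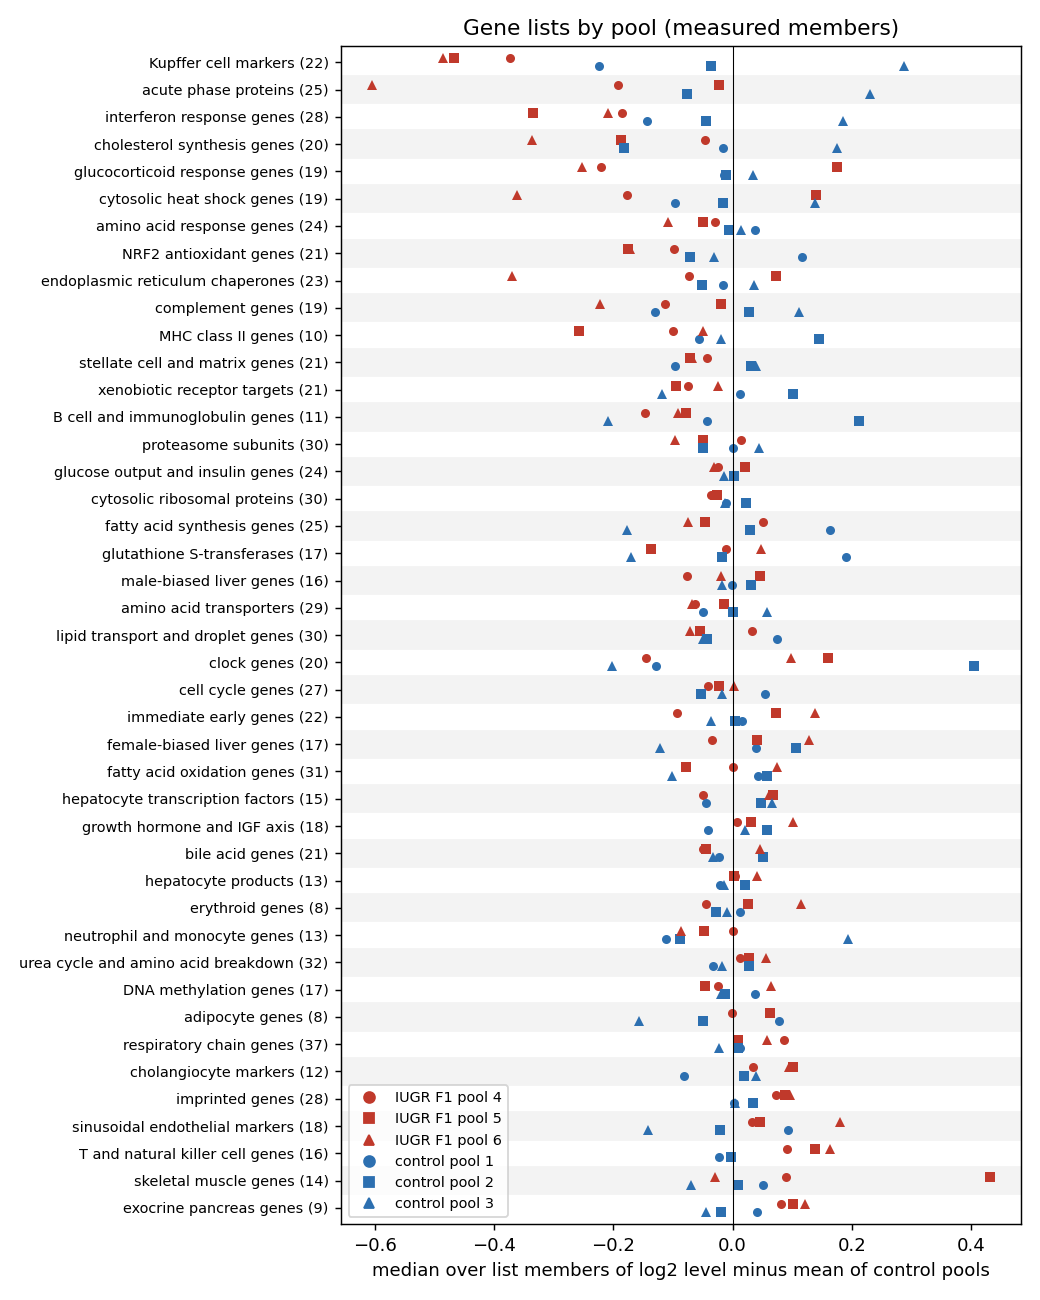
For each of 43 gene lists, the median over measured members (number in brackets) of log2 level minus the mean of the control pools is shown per pool, red for IUGR F1 and blue for control, ordered by difference. Kupffer cell markers lie farthest to the left, pool 6 is low in acute phase, chaperone and heat shock lists, and pool 5 is high in skeletal muscle genes.

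Stress and acute phase programmes of hepatocytes varied between the IUGR F1 pools. Acute phase proteins, the plasma proteins that inflammation induces, lay lower in 22 of 25 with a median of -0.30, and pool medians were -0.19, -0.02 and -0.61 in IUGR F1, against -0.08, -0.08 and 0.23 in control pools. Apcs, the pentraxin serum amyloid P, stood at 12.71, 13.02 and 12.47, against 13.18, 13.26 and 13.57 in control pools (-0.60 ± 0.23, limma adjusted p = 0.502). Without pool 6 the list median was -0.13, and without control pool 3 it was -0.17.

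Chaperones of the endoplasmic reticulum, which fold secreted proteins, lay lower in 21 of 23 with a median of -0.11, and their pool medians were -0.07, 0.07 and -0.37 in IUGR F1, against -0.02, -0.05 and 0.04 in control pools. Without pool 6 only 8 of 23 lay lower and the median was 0.01, without pool 5 it was -0.21, and without control pool 1 it was -0.17. Hsp90b1, the chaperone GRP94, stood at 11.63, 11.83 and 11.33, against 11.84, 11.89 and 12.08 in control pools (-0.34 ± 0.11, adjusted p = 0.472). Cytosolic heat shock genes put the IUGR F1 pools in the same order, at -0.18, 0.14 and -0.36 in IUGR F1, against -0.10, -0.02 and 0.14 in control pools, with 16 of 19 lower and a median of -0.13. Without pool 6 it was -0.02, and without pool 5 it was -0.32.

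Antioxidant genes under the regulator NRF2 lay lower in 19 of 21, with a median of -0.12 and pool medians of -0.10, -0.18 and -0.17 in IUGR F1, against 0.12, -0.07 and -0.03 in control pools, which did not overlap. Without control pool 1 the median was -0.05, and without control pool 2 it was -0.18. Nqo1, a quinone reductase, stood at 4.72, 4.68 and 4.88, against 5.23, 5.10 and 5.00 in control pools (-0.35 ± 0.12), and Gsr, which regenerates glutathione, at 8.52, 8.43 and 8.42, against 8.66, 8.68 and 8.92 (-0.30 ± 0.12). The pools lay apart in both genes. Cholesterol synthesis genes lay lower in 16 of 20, with a median of -0.20 and overlapping pools. Idi1, an enzyme of the isoprene step, stood at 11.02, 10.91 and 10.59, against 11.11, 11.04 and 11.57 in control pools (-0.40 ± 0.23).

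Promoters of C1qb, Cxcl10 and Hsp90b1 show the sequence context of the Kupffer, interferon and chaperone genes described above, as the 250 bases before the start of the gene in the RefSeq annotation of GRCm38.p6, written 5' to 3' on the strand of the gene. Capitals mark a match, on either strand, to the letters of an element: GAGGAA, a core bound by the myeloid factor PU.1, in C1qb (chr4:136886201-136886450, minus strand), GAAANNGAAA, an interferon response element, in Cxcl10 (chr5:92348890-92349139, minus strand), and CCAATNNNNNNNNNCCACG, an endoplasmic reticulum stress element, in Hsp90b1 (chr10:86705445-86705694, minus strand), where it occurs 2 times.
C1qb: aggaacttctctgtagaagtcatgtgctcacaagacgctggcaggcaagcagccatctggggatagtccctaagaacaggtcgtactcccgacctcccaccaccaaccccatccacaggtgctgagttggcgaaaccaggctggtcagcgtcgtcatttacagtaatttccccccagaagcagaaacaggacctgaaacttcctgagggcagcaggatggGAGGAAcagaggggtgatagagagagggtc
Cxcl10: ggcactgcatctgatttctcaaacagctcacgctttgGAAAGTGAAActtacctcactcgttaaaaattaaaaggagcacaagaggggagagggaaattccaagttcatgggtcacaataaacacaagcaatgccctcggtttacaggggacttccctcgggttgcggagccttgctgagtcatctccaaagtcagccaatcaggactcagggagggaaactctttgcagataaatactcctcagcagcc
Hsp90b1: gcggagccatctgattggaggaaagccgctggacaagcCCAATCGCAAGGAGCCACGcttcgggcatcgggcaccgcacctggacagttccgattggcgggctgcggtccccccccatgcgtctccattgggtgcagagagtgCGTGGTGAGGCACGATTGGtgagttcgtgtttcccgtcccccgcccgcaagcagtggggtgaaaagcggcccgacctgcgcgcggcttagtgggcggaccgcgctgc
A match to these letters is a description of the sequence and not a measured binding site. The PU.1 letters were found in 8 of 16 Kupffer markers with a promoter entry (50%) and in 25.9% of 27025 genes of the table. The interferon letters were found in 13 of 21 interferon response genes (61.9%), Mndal among them, and in 3.46% of all genes, and the stress element in 9 of 20 chaperone genes (45%) and in 0.13% of all genes. The first 2 elements can share the bases GAA where they meet. Sterol, heat shock and D-box letters were searched in their lists too. They were found in 1 of 16 (6.25%), 2 of 17 (11.8%) and 2 of 17 members (11.8%), and in 0.703%, 0.514% and 3.63% of all genes.

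Lists of hepatocyte identity and of the growth hormone axis had medians near 0. The 15 measured hepatocyte transcription factors divided into 7 higher and 8 lower, with a median of -0.0039 over all pools and -0.07 without control pool 1. Prox1, a homeobox factor of liver development, stood at 7.45, 7.33 and 7.28 in IUGR F1, against 7.93, 7.62 and 7.99 in control pools (-0.50 ± 0.30, limma adjusted p = 0.681), with the groups apart and the same sign in its 3 probe sets. The 18 measured genes of the growth hormone and IGF axis had a median of 0.01 with overlapping pools, and none had an unadjusted p under 0.05, where 5.46% of all genes did on the higher and 2.97% on the lower side, so that a count of 0 among 18 says little. The growth hormone receptor Ghr stood at 12.52, 12.53 and 12.59 in IUGR F1, against 12.45, 12.54 and 12.44 in control pools, and Igf1, the growth factor it induces, at 12.07, 12.08 and 12.18, against 11.95, 12.24 and 11.93. Igfbp1, a binding protein that fasting induces, ranged widely in both groups, at 7.33, 6.57 and 7.99, against 7.62, 7.00 and 7.41 in control pools. Fatty acid synthesis (median -0.03, 14 of 25 lower) and fatty acid oxidation genes (-0.0060, 16 of 31 lower) divided about evenly over all pools, and the division moved with single control pools. Without control pool 3, 23 of 25 synthesis genes (median -0.14) and 25 of 31 oxidation genes (-0.055) lay lower, and without control pool 1, 17 of 25 synthesis genes lay higher.

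Imprinted genes lay higher in 18 of 28, with a median of 0.08, pool medians of 0.07, 0.09 and 0.10 in IUGR F1, against 0.00, 0.03 and 0.00 in control pools. In 6 of the 28 the IUGR F1 pools lay above all control pools, where 8.59% of all genes did, and in 2 below, where 5.89% did. Impact, a regulator of the amino acid sensing kinase GCN2, stood at 6.96, 6.90 and 6.99, against 7.15, 7.29 and 7.32 in control pools (-0.30 ± 0.08, limma adjusted p = 0.42), with this sign in 2 of its 3 probe sets. Dlk1, a paternally expressed inhibitor of fat cell formation, stood at 4.14, 4.14 and 4.18, against 3.80, 3.94 and 3.98 in control pools (0.25 ± 0.08), with this sign in 1 of its 2 probe sets. Mest, another paternally expressed gene of growth, stood at 5.38, 5.44 and 5.43, against 5.24, 5.28 and 5.11 (0.21 ± 0.10). Phlda2, a maternally expressed growth inhibitor of the placenta, stood at 4.70, 4.97 and 4.86, against 5.62, 4.91 and 5.65 in control pools (-0.55 ± 0.21) and overlapped. Of the 28 genes 13 had a mean level under 5, and over the others alone the median was 0.02. The median of all 28 was 0.13 without pool 4, 0.04 without pool 6 and 0.04 without control pool 3.

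The 17 measured DNA methylation genes had a median of 0.04, and none had an unadjusted p under 0.05, a count to be read against the same shares of 5.46% and 2.97% of all genes. The maintenance methyltransferase Dnmt1 stood at 6.59, 6.55 and 6.36 in IUGR F1, against 6.69, 6.51 and 6.76 in control pools (-0.15 ± 0.10, with this sign in 2 of 3 probe sets), and Dnmt3a, which sets new methylation, at 6.08, 6.31 and 6.33, against 6.49, 6.35 and 6.38 (-0.17 ± 0.20, in 3 of 5 probe sets). Dnmt3b stood at 7.08, 6.26 and 6.83, against 6.52, 6.08 and 6.43 in control pools (0.38 ± 0.21). Of these 3, only Dnmt3a had pools that did not overlap, by a very small gap.

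Against the other first generation challenge, ON F1, limma called 2 of 18193 genes (0.011%). Adi1, an enzyme that recycles methionine, stood at 8.18, 8.32 and 8.36 in IUGR F1, against 9.17, 9.10 and 9.16 in ON F1 livers, and fell by 0.86 ± 0.11 relative to ON F1 (adjusted p = 0.0374). H2bc21, a histone H2B gene, stood at 6.50, 6.55 and 6.31 in IUGR F1, against 5.86, 5.50 and 5.51 in ON F1 livers, and was 0.83 ± 0.12 higher (adjusted p = 0.0440). Control pools averaged 8.52 ± 0.25 for Adi1 and 6.25 ± 0.17 for H2bc21, near the IUGR F1 means of 8.29 ± 0.10 and 6.45 ± 0.12. The lipoprotein lipase Lpl, which frees fatty acids from circulating triglyceride, had the next smallest p on the higher side, at 9.74 ± 0.34 in IUGR F1 against 8.31 ± 0.60 in ON F1 livers (1.44 ± 0.24, adjusted p = 0.115). Slc7a4 averaged 6.81 ± 0.05 in IUGR F1 and 6.81 ± 0.13 in ON F1 livers.

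Against IUGR F2, the male offspring of IUGR males, limma also called 2 genes of 18193 (0.011%). Adi1 fell by 0.81 ± 0.11 relative to IUGR F2 (adjusted p = 0.0370), whose pools stood at 9.02, 8.97 and 9.30. Mtif2, the initiation factor of mitochondrial translation, stood at 7.40, 7.43 and 7.38 in IUGR F1, against 7.96, 8.03 and 8.14 in IUGR F2 livers, and fell by 0.64 ± 0.09 (adjusted p = 0.0370). The groups did not overlap in either gene, and the control mean of Mtif2, 7.72 ± 0.18, lay between them. Slc7a4, Rimklb and Sppl2a, described above against control, were among the 6 genes with the smallest p here. Slc7a4 averaged 6.30 ± 0.02 in IUGR F2 livers (0.51 ± 0.08, adjusted p = 0.0524), Rimklb 4.85 ± 0.05 (0.41 ± 0.07, adjusted p = 0.0822) and Sppl2a 10.60 ± 0.07 (-0.53 ± 0.08, adjusted p = 0.0524). The comparisons with control and with IUGR F2 share the IUGR F1 arrays, so these values are not independent of those above. The Kupffer list had a median of -0.18 against IUGR F2 and -0.30 against ON F1, and interferon response genes -0.24 and -0.49.

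**Figure D5:**
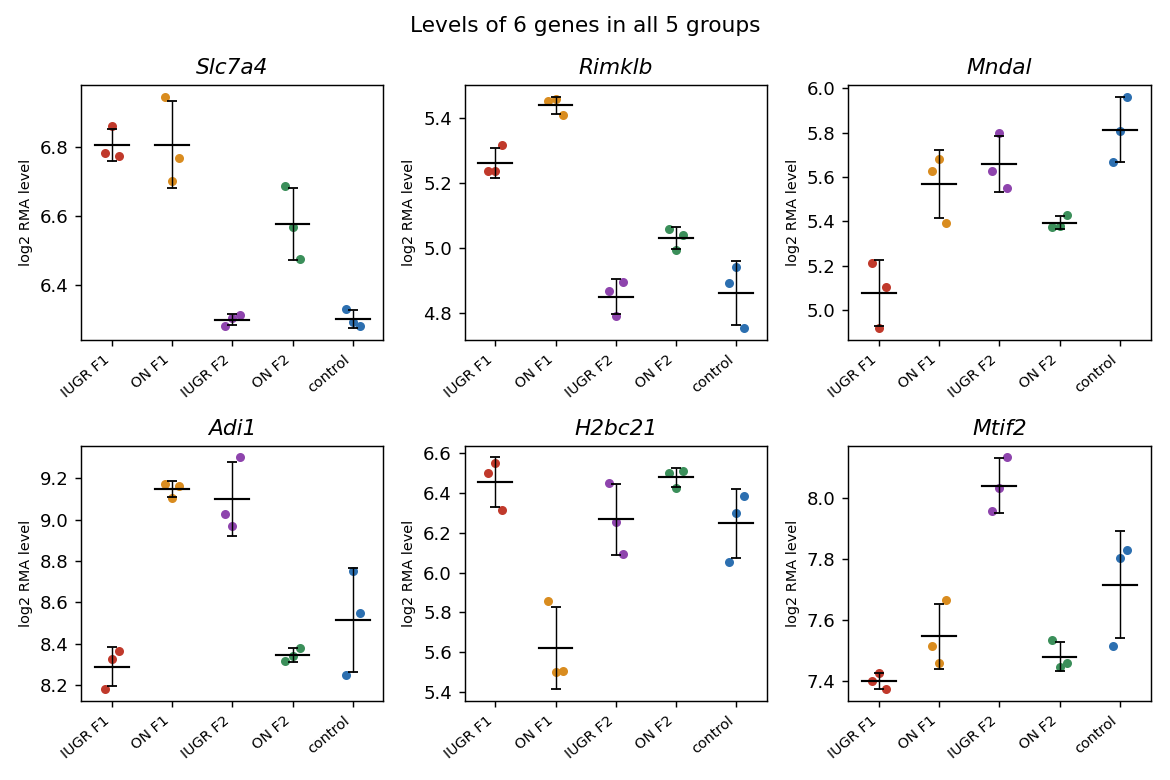
Log2 RMA levels of 6 genes are shown in all 5 groups, with 1 point per pool and a bar for the mean ± SD of 3 pools. Slc7a4 and Rimklb are high in IUGR F1 and ON F1 and low in IUGR F2 and control. Their ON F2 means, 6.58 and 5.03, lie in between. Mndal is lowest in IUGR F1, Adi1 is high in ON F1 and IUGR F2, H2bc21 is low in ON F1, and Mtif2 is highest in IUGR F2.

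The 4 calls against ON F1 and IUGR F2 depended on the arrays used. Leaving out any 1 IUGR F1 pool ended each of them, and so did the actin ratio as a covariate. Leaving out control pool 3, which shares only the estimate of the spread, ended both calls against ON F1, and leaving out control pool 2 ended those of H2bc21 and Mtif2. The calls nearest to the threshold against control moved the other way in some settings: Mndal passed when all probe sets of a gene were averaged, and Mndal and Slc7a4 passed after a further quantile normalization and with array weights.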

How the data were processed

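Whole liver RNA of 15 pools in 5 groups of 3 was measured, and titles and treatment labels gave the groups. Per the labels' protocols, frozen liver was extracted with Trizol and biotin-labelled cRNA was hybridised to the array. The deposited values are log2 levels per probe set, which the authors computed by RMA according to the submitters' processing notes, with no version given there. RMA removes background, equalises the quantiles of arrays and combines the probes of a set, and it compresses differences of dim probe sets. That the scale is log2 follows from the range of the values. Array files carry no read depth, so the number of arrays limits the precision (median SE 0.104).

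Of 45101 probe sets, 64 controls were left out. Of the rest, 34945 were annotated with 1 symbol, 932 with several and 9160 with none, and 34741 matched the RefSeq gene table of GRCm38.p6. For the 9010 of 18193 genes with several probe sets, the one of highest mean over 15 arrays stood for the gene. No filter on dim genes was applied. Differences were fitted in R 4.3.3 with limma 3.58.1 as 5 group means over all 15 arrays, with two-sided moderated tests, 10 residual and 4.69 prior degrees of freedom, and Benjamini-Hochberg adjustment over all genes at 0.05. The script was tested on simulated data. 0 pairs of arrays held identical values.

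The members, the tests and the 43 lists (967 entries, 880 measured, 2 through an older symbol) were chosen with earlier results of these data known. Lists are described by counts and medians and were not tested. Named genes were the 15 smallest p of each direction, the 10 largest differences of each direction with an unadjusted p under 0.05 and pools apart, the 4 smallest p of each list, any member of the Kupffer, imprinted, DNA methylation, growth hormone and clock lists, and the 5 smallest p of each direction against ON F1 and IUGR F2. Lpl is named under that last rule. Alternatives changed the probe set summary, filter, arrays, scaling, moderation, weights and covariates, or left out 1 pool. Promoter sequences came from RefSeq, GRCm38.p6.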

Additional observations from a re-analysis of the deposited data

Results flagged for a closer look

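IUGR F1 livers differed from ON F1 or IUGR F2 livers in 3 genes, by a test of the difference itself (limma, adjusted over 18193 genes). Adi1, of the methionine salvage pathway, differed by -0.86 ± 0.11 between IUGR F1 and ON F1 livers and by -0.81 ± 0.11 between IUGR F1 and IUGR F2 livers, with all 3 IUGR F1 pools below the other group each time. Control livers, at 8.52 ± 0.25, overlapped IUGR F1, at 8.29 ± 0.10. The histone gene H2bc21 differed by 0.83 ± 0.12 between IUGR F1 and ON F1 livers. The mitochondrial initiation factor Mtif2 differed by -0.64 ± 0.09 between IUGR F1 and IUGR F2 livers. None of these calls remained when any 1 IUGR F1 pool was left out. Log2 ratios of 3' to 5' actin were 1.88, 1.93 and 1.83 in IUGR F1 pools, 1.92, 2.22 and 2.09 in ON F1 pools and 1.93, 1.84 and 2.28 in IUGR F2 pools. With this ratio as a covariate none of the 3 genes was called. Its part in these differences was not tested.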

How the results depend on the processing

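No paired analysis was possible because the labels number the pools 1 to 15 without sharing a number between groups. The count of genes called between IUGR F1 and control, 0 as reported, was 1 with the mean of all probe sets of a gene (Mndal), 2 after a further quantile normalization and 2 with array weights (Mndal and Slc7a4 each time), and stayed at 0 in the other alternatives run and without any 1 pool, with a smallest adjusted p of 0.0840 to 0.432 without 1 pool. The number at an unadjusted p under 0.05, 1534 as reported, was 3648 when each probe set was tested on its own, 755 over genes with a mean of 5 or more, and 1030 without control pool 3 to 1622 without control pool 2. Against ON F1, 2 genes as reported became 1 with arrays centred on their median, 1 with an intensity trend, 1 with the clock score as a covariate, 0 with the actin ratio, and 0 to 2 without 1 pool. Against IUGR F2, 2 became 1 by single probe sets, 5 over genes with a mean of 5 or more, 15 with array weights, 1 with the clock score, 0 with the actin ratio, and 0 to 4 without 1 pool. The fit on the 6 arrays alone gives no value for these other comparisons. Higher genes made up 64.8% of those at an unadjusted p under 0.05, and 43.6% (673 higher and 869 lower) with arrays centred on their median. Of 13 lists with a median beyond 0.1 in size, 1 turned its direction in an alternative (endoplasmic reticulum chaperones, 0.01 without pool 6), and of the nearer lists 22 turned in at least 1. The Kupffer median lay between -0.53 and -0.31 throughout. Of 75 gene differences against control, Slc40a1 (0.05) reversed to -0.014 with the mean of probe sets and ranged from -0.074 to 0.17 without 1 pool, and Dlk1 (0.25) reversed to -0.0074 with the mean of probe sets. The cause was not tested. Dim genes limit what can be read: 7830 of 18193 had a mean under 5.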

Other observations

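Single metabolic genes stood apart from control in IUGR F1 livers while their lists had medians near 0. Glucose 6-phosphatase, G6pc, which releases glucose from the liver, stood at 10.82, 10.48 and 10.91 in IUGR F1 pools 4, 5 and 6, against 10.11, 10.03 and 10.43 in control pools 1, 2 and 3 (0.55 ± 0.16, limma adjusted p = 0.432). Hal, which starts histidine breakdown, stood at 11.11, 10.86 and 11.20, against 10.84, 10.78 and 10.77 in control pools (0.26 ± 0.10). The male-biased cytochrome Cyp2u1 stood at 8.06, 7.92 and 8.32, against 7.83, 7.68 and 7.64 in control pools (0.38 ± 0.14). The pools lay apart in these 3 genes, which were named for having small p-values in their lists. All IUGR F1 pools lay above all control pools in 1 of 24 glucose output and insulin genes. They did so in 3 of 32 urea cycle and amino acid breakdown genes and in 1 of 16 male-biased liver genes. The share over all genes was 8.59%, so these counts say little about the lists. Acaa1a, a thiolase of peroxisomal fatty acid oxidation, stood at 8.34, 8.13 and 8.04, against 8.48, 8.58 and 8.72 in control pools (-0.42 ± 0.15), and the lipid droplet protein Plin4 at 5.21, 5.03 and 5.15, against 4.81, 4.98 and 4.77 (0.28 ± 0.08). The fat cell regulator Pparg differed by -0.52 ± 0.22 and overlapped.

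Genes of the amino acid response, which amino acid shortage induces through ATF4, lay lower in 16 of 24, with a median of -0.12 and pool medians of -0.03, -0.05 and -0.11 in IUGR F1, against 0.04, -0.0056 and 0.01 in control pools, which did not overlap. Of the 24, 3 lay above and 3 below all control pools, where 8.59% and 5.89% of all genes did. Besides Adm2, Aldh1l2, a mitochondrial folate enzyme with a low mean level of 4.15 over the 15 arrays, was 0.32 ± 0.12 higher. Phgdh, the first enzyme of serine synthesis, stood at 6.87, 6.85 and 6.81, against 6.58, 6.64 and 6.51 in control pools (0.27 ± 0.11, with this sign in 3 of its 4 probe sets). Eif4ebp1, a repressor of translation, stood at 8.81, 8.94 and 8.95, against 9.08, 9.15 and 9.28 in control pools (-0.27 ± 0.08, limma adjusted p = 0.441), with this sign in 2 of its 3 probe sets. None of these genes was called.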
